A study of Mus musculus with 6 samples.

Results

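The superoxide dismutases, catalase and the peroxiredoxins were examined in RNA-seq of MLE12 cells, an immortalised mouse lung epithelial line that serves as a model of alveolar type 2 cells. The 10 genes *Sod1*, *Sod2*, *Sod3*, *Cat* and *Prdx1* to *Prdx6* were taken by gene name from a table of 54532 genes. Of these, 9 were expressed highly enough to be tested and *Sod3* was not. The study compared 3 Ctrl shRNA libraries with 3 libraries of Idh3α shRNA + Slc25a1 shRNA, called knockdown libraries below. *Idh3a* encodes the catalytic subunit of the NAD-dependent isocitrate dehydrogenase, and *Slc25a1* encodes the carrier that exports citrate from mitochondria. Ctrl shRNA cells received empty lentiviral vectors, and knockdown cells received both shRNA lentiviruses simultaneously, each at a multiplicity of infection of 50. The control virus was also given at 50, and the paper does not say whether the total virus dose was matched between the groups. The part of virus dose in the results was not tested. All 6 samples were labelled as strain C57BL/6J and were grown in HITES medium with 2% serum. The virus was removed with the medium at 16 h, and culture went on for 80 h. Every library came from the same cell line, and nothing in the labels says that replicates of a group were separate cultures, so that p-values measure only the spread between these samples, which may be technical.

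Superoxide dismutases convert superoxide into hydrogen peroxide. Catalase splits hydrogen peroxide in peroxisomes, and peroxiredoxins reduce it through a reactive cysteine that is regenerated mostly by thioredoxin, or by glutathione in the case of *Prdx6*. The enzymes are distributed over the cell, with *Sod1*, *Prdx1*, *Prdx2* and *Prdx6* mainly in the cytosol, *Sod2*, *Prdx3* and *Prdx5* mainly in mitochondria (*Prdx5* also elsewhere), *Prdx4* in the secretory pathway and *Sod3* outside the cell. Several genes of this system are classical targets of the transcription factor NRF2, which binds the antioxidant response element.

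The proximal promoters of the genes shared a GC box and differed in the other motifs searched. RefSeq promoter entries of GRCm38.p6, 300 bases each, were found for 8 of the 10 genes and not for *Prdx6* and *Sod3*. The core of the antioxidant response element, spelled TGACNNNGC, was searched on both strands, as were the GC box GGGCGG, the AP-1 site TGANTCA, the TATA box TATAAA and CCAAT. The GC box was found in all 8 entries, against 35.7% of all 32851 entries. The antioxidant response element core was found in 12.4% of all entries. Of the 8 entries, 2 held it, those of *Prdx1* (133 bases before the start) and *Sod1* (56 bases before the start). In *Prdx1* this match overlapped an AP-1 match, a motif present in 7.81% of all entries, and another AP-1 match lay farther upstream. The entries of *Prdx1* and *Sod1* also held a TATA box, as did 3 of the 8 entries and 13.6% of all entries, and in *Sod1* it followed the core closely. The entry of *Cat* held no antioxidant response element core and 4 CCAAT matches, a motif in 4 of the 8 entries, that of *Sod1* included, and in 37.4% of all entries. The bases upstream of each gene's annotated bounds are printed for *Prdx1* (chr4:116685349-116685543, plus strand), *Sod1* (chr16:90220512-90220753, plus strand) and *Cat* (chr2:103485161-103485403, minus strand), the first 2 because they hold the core and *Cat* because it does not. For *Gclm*, a glutathione synthesis gene that comes up again among the partners, 41 bases around its match are shown (chr3:122245407-122245447, plus strand). Capitals mark the antioxidant response element core and AP-1 in *Prdx1*, the core and the TATA box in *Sod1*, CCAAT in *Cat*, and the core in *Gclm*. The match on the opposite strand reads in reverse complement. The CCAAT match of *Sod1* is left in lower case, and the TATA box of *Prdx1* lies outside the printed bases.
Prdx1: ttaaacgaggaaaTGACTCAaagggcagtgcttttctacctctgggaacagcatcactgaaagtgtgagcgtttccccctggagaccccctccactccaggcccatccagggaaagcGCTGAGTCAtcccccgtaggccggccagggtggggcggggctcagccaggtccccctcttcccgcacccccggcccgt
Sod1: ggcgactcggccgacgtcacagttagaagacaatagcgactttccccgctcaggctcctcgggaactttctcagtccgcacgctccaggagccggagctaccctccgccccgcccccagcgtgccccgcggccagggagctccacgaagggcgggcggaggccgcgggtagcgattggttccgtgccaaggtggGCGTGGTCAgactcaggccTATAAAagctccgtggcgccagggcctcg
Cat: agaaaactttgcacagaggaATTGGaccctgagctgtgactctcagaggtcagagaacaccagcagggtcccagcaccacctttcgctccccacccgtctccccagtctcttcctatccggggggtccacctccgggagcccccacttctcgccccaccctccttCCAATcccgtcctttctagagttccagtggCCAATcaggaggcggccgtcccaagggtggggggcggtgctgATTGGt
Gclm: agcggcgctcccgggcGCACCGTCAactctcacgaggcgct
A match describes letters only and does not show that a factor binds there.

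Total counts ran from 27273502 to 28535653 per library. Levels are given as CPM, counts scaled to the same library size with TMM factors, always in the order of replicates 1, 2 and 3. *Idh3a* was at 79.8, 137 and 93.0 CPM in Ctrl shRNA, whereas the knockdown libraries had 58.5, 57.9 and 55.5 CPM. *Slc25a1* was at 103, 98.7 and 108 CPM in Ctrl shRNA and at 68.9, 69.6 and 63.0 CPM in the knockdown, so both targeted genes were lower in every knockdown library, as were 10.7% of all genes. The edgeR adjusted p was 0.254 for *Idh3a* and 0.104 for *Slc25a1* with all libraries, and 0.0142 and 0.00649 without Ctrl shRNA replicate 2. Ctrl shRNA replicate 2 stood apart from the other 5 libraries. Its 100 most abundant genes took 27.2% of the counts, against 12.6% to 12.9% elsewhere, mitochondrially encoded genes took 6.49% against 1.57% to 1.80%, and 16681 genes were detected against 19902 to 23147. The log2 fold changes of the enzymes are therefore given with and without it. Of 9 alveolar type 2 markers, 4 stayed below 1 CPM in all libraries (*Sftpd* at 0, *Sftpa1*, *Lamp3* and *Slc34a2*), and the summed level, most of it *Nkx2-1*, was 524 to 533 CPM in Ctrl shRNA and 442 to 473 CPM in the knockdown. *Sftpc*, the surfactant protein that defines these cells, was at 44.1, 97.3 and 50.9 CPM in Ctrl shRNA and at 35.9, 28.5 and 27.2 CPM in the knockdown (edgeR adjusted p = 0.315, and 0.0438 without Ctrl shRNA replicate 2). *Napsa* averaged 0.630 and 1.27 CPM, respectively, and *Abca3* 127 and 132 CPM. The 4 epithelial markers summed to 305 to 375 and 344 to 367 CPM, respectively, with *Krt18* below 1 CPM. *Ptprc* and *Adgre1* were at 0 and the 4 macrophage markers summed to at most 2.76 CPM, the 3 endothelial markers to at most 0.989 CPM and the 5 red cell markers to at most 5.06 CPM, with 3 of them at 0. The 4 fibroblast markers summed to 346 to 1233 CPM in Ctrl shRNA, with the highest value in replicate 2, and to 317 to 345 CPM in the knockdown, nearly all of it *Dcn*. The part of these values in the results for the antioxidant enzymes was not tested.

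With all 6 libraries, none of the 9 tested antioxidant enzyme genes passed an adjusted p under 0.05 in edgeR's quasi-likelihood test. At this rule 0.0588% of the 15307 genes tested were called higher and 0.00653% lower. At an unadjusted p under 0.05 the test also gave 0 of the 9 genes, against 7.47% of all genes higher and 6.65% lower. DESeq2 called 0 (background 1.58% higher and 0.980% lower), with 0 higher and 3 lower at an unadjusted p under 0.05 (background 7.16% and 10.9%). Without Ctrl shRNA replicate 2, edgeR again called 0 of the 9 genes (background 1.11% higher and 0.675% lower). At an unadjusted p under 0.05 it then listed *Prdx6* as higher and *Prdx4* and *Prdx5* as lower, where 9.54% and 10.3% of all genes passed in each direction. The log2 fold changes were positive in 2 of the 9 genes with all libraries and in 3 without replicate 2, against 48.7% and 47.3% of all genes. Their median was -0.68 with all libraries, beside -0.01 for all genes tested, and -0.05 without replicate 2, beside -0.02. In these bulk samples, a lower level could reflect fewer expressing cells or less RNA per cell, which cannot be told apart.

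**Figure D1:**
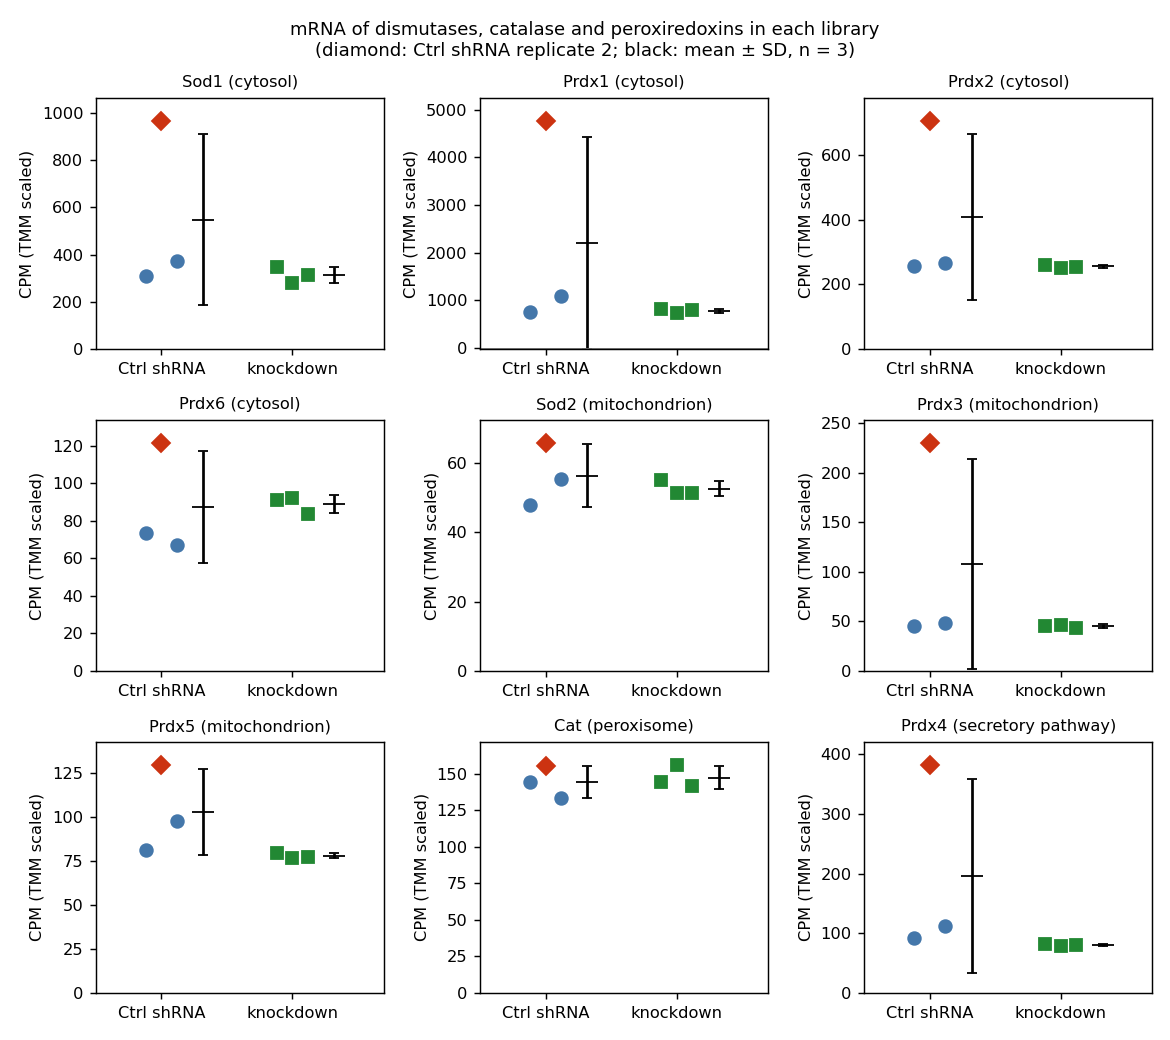
TMM-scaled CPM (vertical axis) of the 9 tested genes in the 3 Ctrl shRNA libraries (blue circles, with replicate 2 as a red diamond) and the 3 knockdown libraries (green squares), with the group mean ± SD (n = 3) in black. Ctrl shRNA replicate 2 is the highest of the 6 libraries for every gene but *Cat*, whereas the knockdown libraries lie close together.

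Among the dismutases, *Sod1* (ENSMUSG00000022982; chr16:90220754-90226329, plus strand) encodes the copper- and zinc-dependent enzyme of the cytosol and the mitochondrial intermembrane space. It was at 308, 965 and 371 CPM in Ctrl shRNA and at 348, 281 and 312 CPM in the knockdown. Replicate 2 was the only high library, and the groups overlapped. The mean was 548 ± 362 CPM (SD, n = 3) in Ctrl shRNA and 314 ± 33.6 CPM (SD, n = 3) in the knockdown, with a log2 fold change of -0.80 (SE 0.44, edgeR adjusted p = 0.393). Without replicate 2 the log2 fold change was -0.12 (SE 0.11, edgeR adjusted p = 0.560), within the spread between libraries. *Sod1* shares 650 bases with *Scaf4* on the opposite strand, and since the counting's use of strand was not given, its level is uncertain to that extent.

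*Sod2* (ENSMUSG00000006818; chr17:13006846-13040063, plus strand) encodes the manganese enzyme of the mitochondrial matrix. It was at 47.9, 65.9 and 55.5 CPM in Ctrl shRNA and at 55.2, 51.4 and 51.4 CPM in the knockdown, so that all knockdown values fell inside the range of the controls. The log2 fold change was -0.10 (SE 0.13, edgeR adjusted p = 0.703) and, without replicate 2, 0.02 (SE 0.08, edgeR adjusted p = 0.928). *Sod3* (ENSMUSG00000072941; chr5:52363791-52371418, plus strand), the secreted dismutase, had 3, 0 and 4 counts in Ctrl shRNA and 3, 2 and 1 counts in the knockdown. These counts were too few for a comparison at this depth. The 0 counts of replicate 2 allow a level of up to 0.152 CPM (3 counts, counting error only).

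*Cat* (ENSMUSG00000027187; chr2:103453849-103485160, minus strand), the peroxisomal catalase, was the steadiest of the genes over the libraries in TMM-scaled CPM. It was at 145, 155 and 134 CPM in Ctrl shRNA and at 144, 156 and 141 CPM in the knockdown, with means of 145 ± 10.8 and 147 ± 7.84 CPM (SD, n = 3 each). Neither group was above the other, and replicate 2 fell within the range of the other 5 libraries. This position of replicate 2 depended on the scaling, since its unscaled count was 3066, against 3833 to 4742 in the other libraries. The log2 fold change was 0.03 (SE 0.09, edgeR adjusted p = 0.886) with all libraries and 0.07 (SE 0.07, edgeR adjusted p = 0.619) without replicate 2.

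The most abundant of the cytosolic peroxiredoxins by CPM was *Prdx1* (ENSMUSG00000028691; chr4:116685544-116700822, plus strand), a typical 2-cysteine enzyme reduced by thioredoxin. It was at 759, 4766 and 1096 CPM in Ctrl shRNA and at 816, 736 and 796 CPM in the knockdown. Replicate 2 was far above all other libraries, replicate 3 was the second highest, and replicate 1 lay among the knockdown values. The means of 2207 ± 2222 and 783 ± 41.6 CPM (SD, n = 3 each) gave a log2 fold change of -1.49 (SE 0.69, edgeR adjusted p = 0.362). Without replicate 2 it was -0.25 (SE 0.13, edgeR adjusted p = 0.327).

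*Prdx2* (ENSMUSG00000005161; chr8:84969587-84974834, plus strand), the closely related enzyme that is abundant in red cells, was at 256, 705 and 267 CPM in Ctrl shRNA and at 261, 252 and 255 CPM in the knockdown. Apart from replicate 2 the libraries were nearly level, and the log2 fold change of -0.68 (SE 0.40, edgeR adjusted p = 0.421) became -0.04 (SE 0.06, edgeR adjusted p = 0.778) without it. *Prdx2* overlaps *Junb* over 351 bases and *Rnaseh2a* over 181 bases on the opposite strand, and its level carries the same uncertainty as that of *Sod1*.

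*Prdx6* (ENSMUSG00000026701; chr1:161240112-161251219, minus strand), a 1-cysteine enzyme that also has phospholipase A2 activity and is known for its role in surfactant phospholipid turnover in the lung, was at 73.5, 122 and 67.0 CPM in Ctrl shRNA. In the knockdown it was at 91.1, 92.0 and 83.4 CPM, above Ctrl shRNA replicates 1 and 3 and below replicate 2. With all libraries the means of 87.3 ± 29.8 and 88.8 ± 4.71 CPM (SD, n = 3 each) differed by a log2 fold change of 0.03 (SE 0.23, edgeR adjusted p = 0.965). Without replicate 2 the groups no longer overlapped, as for 19.0% of all genes in this direction, and the log2 fold change was 0.33 (SE 0.08, 1.26-fold, edgeR adjusted p = 0.0817). DESeq2 called it without replicate 2 (log2 fold change 0.34, adjusted p = 0.0105; 4.01% of genes called higher), and so did limma-voom with sample quality weights on all libraries (log2 fold change 0.36, adjusted p = 0.0272; 8.67% called higher).

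Of the mitochondrial peroxiredoxins, *Prdx3* (ENSMUSG00000024997; chr19:60864051-60874556, minus strand) encodes a thioredoxin-dependent enzyme of the matrix. It was at 45.1, 230.3 and 48.5 CPM in Ctrl shRNA and at 45.7, 46.9 and 43.8 CPM in the knockdown. Replicate 2 alone stood out, and the other 5 libraries lay within a few CPM of each other. The log2 fold change was -1.24 (SE 0.65, edgeR adjusted p = 0.386) with all libraries and -0.05 (SE 0.07, edgeR adjusted p = 0.751) without replicate 2.

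*Prdx5* (ENSMUSG00000024953; chr19:6906697-6910106, minus strand), an atypical 2-cysteine enzyme found in mitochondria, peroxisomes and the cytosol, was at 81.3, 129 and 97.8 CPM in Ctrl shRNA and at 79.3, 76.8 and 77.3 CPM in the knockdown. All knockdown values were below all control values, although replicate 1 was close to them. The means of 103 ± 24.4 and 77.8 ± 1.32 CPM (SD, n = 3 each) gave a log2 fold change of -0.40 (SE 0.17, edgeR adjusted p = 0.354). Without replicate 2 it was -0.21 (SE 0.08, 0.863-fold, edgeR adjusted p = 0.214). Limma-voom with sample quality weights called *Prdx5* (log2 fold change -0.29, adjusted p = 0.0340; 6.34% of genes called lower), whereas DESeq2 did not with all libraries (adjusted p = 0.278) or without replicate 2 (adjusted p = 0.212). *Prdx5* overlaps *Trmt112* over 409 bases on the opposite strand, and its level and the difference between the groups carry the same uncertainty as the level of *Sod1*.

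*Prdx4* (ENSMUSG00000025289; chrX:155323918-155340754, minus strand), which resides in the endoplasmic reticulum and couples peroxide reduction to disulfide formation, was at 92.0, 383 and 113 CPM in Ctrl shRNA and at 81.8, 78.0 and 80.0 CPM in the knockdown. The groups did not overlap with or without replicate 2. With all libraries, means of 196 ± 162 and 79.9 ± 1.92 CPM (SD, n = 3 each) gave a log2 fold change of -1.29 (SE 0.54, edgeR adjusted p = 0.355). Without replicate 2 the log2 fold change was -0.37 (SE 0.09, 0.776-fold, edgeR adjusted p = 0.0856), and DESeq2 without that library called it at -0.36 (adjusted p = 0.0114; 2.69% of genes called lower). *Prdx4* and *Prdx5* were the 2 of the 9 genes whose groups did not overlap with all 6 libraries, both lower in the knockdown, as were 10.7% of all genes, while 14.7% were higher without overlap. Without replicate 2 both stayed lower without overlap, as did 18.8% of all genes. In the exact two-sided permutation test both reached p = 0.1, the smallest value that 3 against 3 libraries allow.

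**Figure D2:**
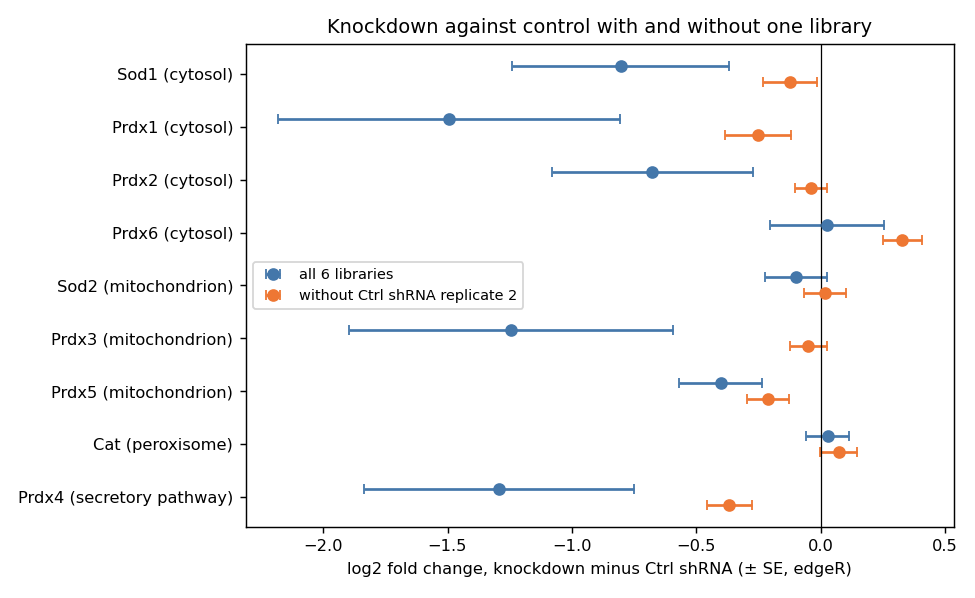
Log2 fold change (knockdown minus Ctrl shRNA, edgeR, bars show SE) of the 9 tested genes, with all 6 libraries (blue) and without Ctrl shRNA replicate 2 (orange). With all libraries the values reach -1.49 for *Prdx1*, and without replicate 2 they lie between -0.37 (*Prdx4*) and 0.33 (*Prdx6*).

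How far Ctrl shRNA replicate 2 departed from the other controls differed strongly between the genes. The difference between its log2(CPM + 0.5) and the mean of replicates 1 and 3 was 2.38 for *Prdx1*, 2.29 for *Prdx3* and 1.90 for *Prdx4*. It was 1.51 for *Sod1* and 1.43 for *Prdx2*, and so 5 of the 9 genes were at least 2-fold higher in replicate 2, as were 12.4% of all genes. *Prdx6* (0.79), *Prdx5* (0.54) and *Sod2* (0.35) departed less, and *Cat* least (0.16). After TMM scaling, replicate 2 was the highest of the 6 libraries for 8 of the 9 genes, against 34.4% of all genes, and the lowest for 0 of the 9, against 38.6%. These ranks depend on the scaling, since its TMM factor was 0.711, against 1.05 to 1.09 elsewhere. Unscaled, its counts were the highest for *Sod1*, *Prdx1*, *Prdx2*, *Prdx3* and *Prdx4*. They lay within the range of the others for *Prdx5* and *Prdx6*, and were the lowest for *Sod2* (1301) and *Cat* (3066). The departure of *Prdx1* lay at percentile 98.2 of all genes tested, that of *Sod2* at percentile 72.3 and that of *Cat* at percentile 64.0. Across 12562 genes, the departure was larger for genes with short transcripts, with medians of 1.31 for principal transcripts up to 1 kb, 0.20 from 1 to 2 kb, -0.08 from 2 to 4 kb and -0.15 over 4 kb (Spearman rho = -0.33, a description across genes of the same libraries). Of the genes studied here, the principal transcripts from short to long were those of *Sod1* (641 bases), *Prdx4* (990), *Prdx5* (1262), *Prdx3* (1478), *Prdx2* (1500), *Prdx1* (2294), *Prdx6* (2387), *Cat* (2613) and *Sod2* (5861). The departures followed this order only in part. *Prdx6*, *Cat* and *Sod2*, with the longest transcripts, were among the smallest departures (0.79, 0.16 and 0.35). By contrast, *Prdx1* departed most and *Prdx5* by only 0.54. Ctrl shRNA replicate 3 was also above replicate 1 for 7 of the 9 genes, against 49.9% of all genes, by 0.53 for *Prdx1*, 0.29 for *Prdx4* and 0.27 for *Sod1* on the same scale, beside a 90th percentile of 0.38 over all genes. The part of transcript length in these differences was not tested.

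**Figure D3:**
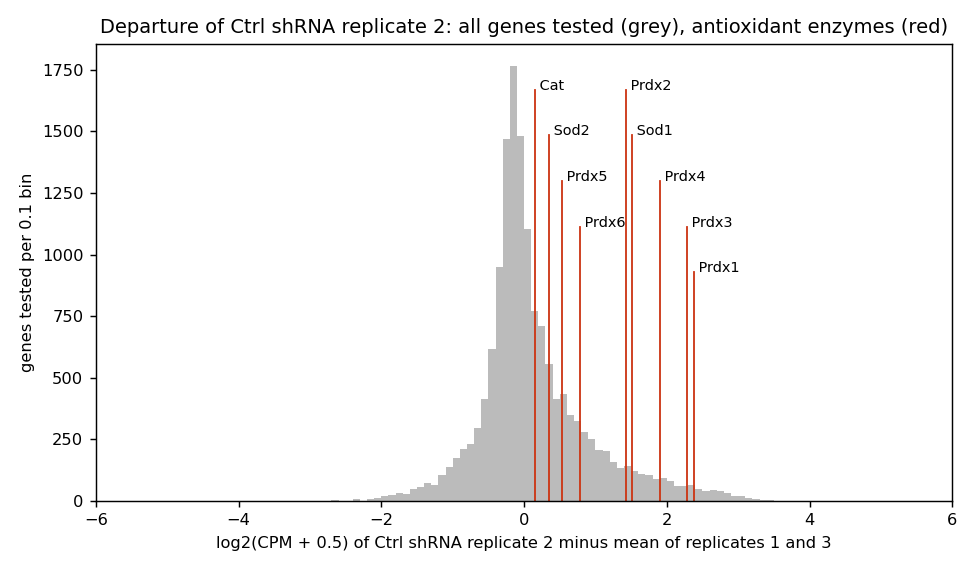
Difference in log2(CPM + 0.5) between Ctrl shRNA replicate 2 and the mean of replicates 1 and 3, as a histogram of all genes tested (grey, genes per bin) with red lines for the 9 tested enzyme genes. *Prdx1*, *Prdx3* and *Prdx4* depart most (2.38, 2.29 and 1.90) and *Cat* least (0.16), beside a median of -0.04 over all genes.

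To compare cytosolic with mitochondrial enzymes, the mean log2 CPM of *Sod2*, *Prdx3* and *Prdx5* was set against that of *Sod1*, *Prdx1*, *Prdx2* and *Prdx6* in each library. The mitochondrial mean minus the cytosolic mean was -2.20, -2.66 and -2.19 in Ctrl shRNA and -2.29, -2.21 and -2.27 in the knockdown. Only Ctrl shRNA replicate 2 departed from the other 5 libraries, since its cytosolic enzymes were higher by more than its mitochondrial ones. The group means were -2.35 ± 0.27 and -2.26 ± 0.05 (SD, n = 3 each), a difference of 0.09 on the log2 scale. Without replicate 2 the difference was -0.06. The direction without replicate 2 depended on which enzymes entered and how they were averaged, since it was 0.10 with the median over the enzymes in place of the mean, 0.052 without *Prdx6* and 0.0011 without *Prdx5*, against 0.15, 0.29 and 0.07 with all libraries. In the knockdown the mean log2 CPM differed from that of Ctrl shRNA by -0.52 for the cytosolic and -0.42 for the mitochondrial enzymes with all libraries, and by -0.01 and -0.07 without replicate 2. Within the cytosolic enzymes alone, the log2 fold changes without replicate 2 ranged from -0.25 for *Prdx1* to 0.33 for *Prdx6*.

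Per deposited gene length, *Prdx1* was the most abundant of the genes in the knockdown, at 258 ± 13.9 FPKM (SD, n = 3). *Prdx2* (84.1 ± 1.60 FPKM) and *Sod1* (79.3 ± 8.52 FPKM) followed and overlapped in range. *Cat* was at 56.6 ± 2.96 FPKM. *Prdx4* (38.1 ± 0.935 FPKM) and *Prdx5* (36.5 ± 0.630 FPKM) also overlapped, and the other 6 of the 8 neighbouring pairs did not. Lower in the order came *Prdx3* at 30.9 ± 1.03, *Prdx6* at 18.5 ± 0.970 and *Sod2* at 5.27 ± 0.222 FPKM, with *Sod3* at 0.0179 FPKM. In Ctrl shRNA the FPKM order was less certain, since *Prdx1* (723 ± 722), *Sod1* (138 ± 89.8), *Prdx2* (134 ± 82.6), *Prdx4* (92.7 ± 76.0) and *Prdx3* (72.8 ± 70.9) varied with replicate 2. The means of *Prdx4* and *Prdx3* were above that of *Cat* (55.4 ± 3.69) in Ctrl shRNA and below it in the knockdown. Without replicate 2 the Ctrl shRNA means were 53.7 FPKM for *Cat*, 49.0 for *Prdx4* and 31.9 for *Prdx3*, the same order as in the knockdown. The order also depended on the length used. The deposited length of *Sod1* was 3970 bases, whereas its principal transcript has 641 bases, and per kilobase of principal transcript *Sod1* ranked above *Prdx1* in the knockdown (490 ± 52.4 against 341 ± 18.1 CPM per kb). *Sod2* stayed the lowest of the 9 tested genes on both scales, at 8.98 ± 0.377 CPM per kb on the latter.

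**Figure D4:**
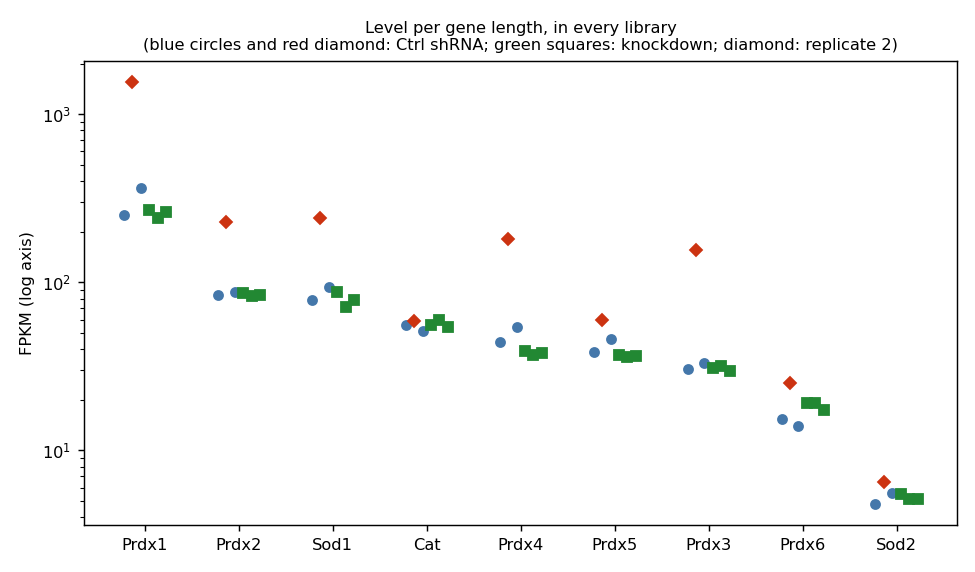
FPKM (log axis) of the 9 tested genes in each library, ordered by the knockdown mean, with Ctrl shRNA as blue circles (replicate 2 as a red diamond) and the knockdown as green squares. In the knockdown, *Prdx1* (258 FPKM) is highest and *Sod2* (5.27 FPKM) lowest of the 9 genes.

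Among the genes that reduce and regulate these enzymes, *Txnip* passed the test with all libraries and *Txnrd1*, *Srxn1* and *Gclm* passed it without Ctrl shRNA replicate 2. Of 14 thioredoxin and sulfiredoxin partners, edgeR called 0 higher and 1 lower with all libraries (background 0.0588% and 0.00653%), and 2 higher and 1 lower without Ctrl shRNA replicate 2, where 1.11% of all genes were called higher and 0.675% lower. *Txnip*, the inhibitor of thioredoxin, was at 167, 166 and 164 CPM in Ctrl shRNA and at 72.2, 78.4 and 71.7 CPM in the knockdown. Replicate 2 did not stand out for this gene, and it fell in both versions, with a log2 fold change of -1.16 (SE 0.07, edgeR adjusted p = 0.0164) with all libraries and -1.17 (SE 0.07, edgeR adjusted p = 0.00021) without replicate 2. When any of the other 5 libraries was left out instead, the log2 fold change stayed between -1.20 and -1.13 but edgeR no longer called it (adjusted p from 0.0709 to 0.258). *Txnrd1*, the cytosolic thioredoxin reductase, was at 637, 556 and 626 CPM in Ctrl shRNA and at 876, 818 and 882 CPM in the knockdown. The groups did not overlap, as for 14.7% of all genes in this direction (the same share applies to *Srxn1* and *Gclm*), and the log2 fold change was 0.50 (SE 0.10, edgeR adjusted p = 0.227). Without replicate 2 it was 0.43 (SE 0.07, 1.35-fold, edgeR adjusted p = 0.0211), which passed.

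*Srxn1*, the sulfiredoxin that repairs overoxidised peroxiredoxins, was at 107, 93.8 and 98.5 CPM in Ctrl shRNA and at 146, 140 and 129 CPM in the knockdown. All knockdown values were again above all controls. Its log2 fold change of 0.47 (SE 0.09) had an edgeR adjusted p of 0.179, and without replicate 2 it was 0.42 (SE 0.08, 1.34-fold, edgeR adjusted p = 0.0380). With all libraries, DESeq2 called both *Txnrd1* (adjusted p = 0.00195) and *Srxn1* (adjusted p = 0.00736) higher. DESeq2 called 3 of the 14 partners higher (background 1.58%), the third being *Txnrd3*, another thioredoxin reductase, with a mean of 12.2 ± 0.897 CPM in Ctrl shRNA and 17.3 ± 1.22 CPM in the knockdown (SD, n = 3 each; DESeq2 adjusted p = 0.0294), which edgeR did not call with all libraries (adjusted p = 0.245) or without replicate 2 (adjusted p = 0.0754). *Txn1*, cytosolic thioredoxin and the direct electron donor of most peroxiredoxins, had the most negative value of the list with all libraries, and *Txnip* without replicate 2. It was at 402, 1758 and 549 CPM in Ctrl shRNA and at 431, 291 and 426 CPM in the knockdown, with replicate 2 alone far above the rest, as for *Prdx1*. Its log2 fold change was -1.24 with all libraries (edgeR adjusted p = 0.361) and -0.32 without replicate 2 (edgeR adjusted p = 0.350).

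Of 13 glutathione peroxidases and glutathione supply genes, 9 were tested. EdgeR called 0 with all libraries (3 higher and 0 lower at an unadjusted p under 0.05, as were 7.47% and 6.65% of all genes). Without replicate 2 it called 1 higher (background 1.11%), with 3 higher and 1 lower at an unadjusted p under 0.05 (background 9.54% and 10.3%), and DESeq2 called 2 higher with all libraries (background 1.58%). *Gclm*, the modifier subunit of the rate-limiting enzyme of glutathione synthesis, was the one called by edgeR. It was at 75.4, 82.0 and 75.9 CPM in Ctrl shRNA and at 103, 111 and 104 CPM in the knockdown, with no overlap and no departure of replicate 2. Its log2 fold change was 0.45 (SE 0.07, edgeR adjusted p = 0.174) with all libraries and 0.48 (SE 0.07, 1.39-fold, edgeR adjusted p = 0.0155) without replicate 2. *Gpx8*, a peroxidase of the endoplasmic reticulum like *Prdx4*, had the most negative value with all libraries, a log2 fold change of -1.49 (edgeR adjusted p = 0.357) and, without replicate 2, -0.36 (edgeR adjusted p = 0.157), when *Gpx3* was slightly lower at -0.38 (edgeR adjusted p = 0.733). The level of *Gpx3* was low, at 0.371 to 1.27 CPM. Of the partners, the 4 called by edgeR were searched for the antioxidant response element core (12.4% of all entries). *Gclc*, a glutathione supply gene not called by edgeR, was also looked up but had no entry, and the others were not searched. The core was found before the start in the RefSeq entry of *Gclm* and in 1 of 3 entries of *Txnrd1*, 28 bases after the start in *Srxn1*, and not in the entry of *Txnip*.

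**Figure D5:**
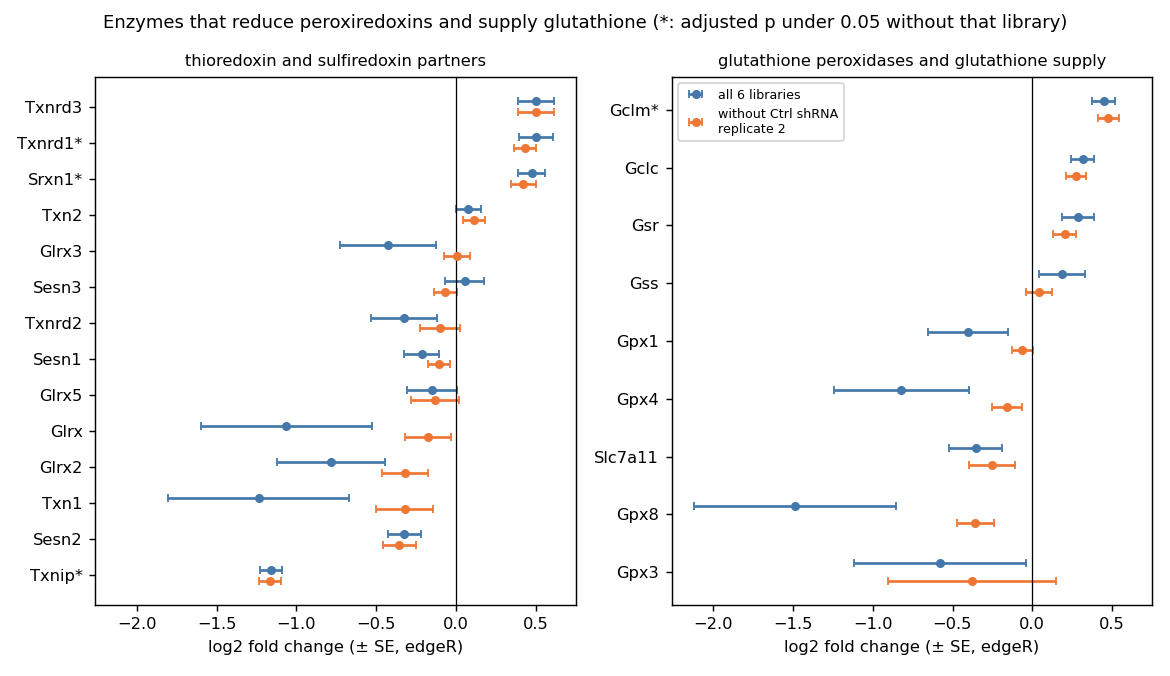
Log2 fold change (knockdown minus Ctrl shRNA, edgeR, bars show SE) of the 14 thioredoxin and sulfiredoxin partners (left) and the 9 tested glutathione genes (right), with all 6 libraries (blue) and without Ctrl shRNA replicate 2 (orange). Asterisks mark the 4 genes with an adjusted p under 0.05 without replicate 2, *Txnrd1*, *Srxn1* and *Gclm* above 0 and *Txnip* below, and *Txn1* and *Gpx8* move most toward 0 when that library is left out.

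The 3 other lists held no call in edgeR with or without replicate 2. Their counts at an unadjusted p under 0.05 are read against 7.47% of all genes higher and 6.65% lower with all libraries, and 9.54% and 10.3% without replicate 2. Among the 8 genes of the metal supply of the dismutases, 1 was higher and 0 lower at an unadjusted p under 0.05 in either version, close to these shares, and DESeq2 called 1 higher (background 1.58%). The DESeq2 call was *Slc39a14*, with means of 43.1 CPM in Ctrl shRNA and 55.4 CPM in the knockdown (DESeq2 adjusted p = 0.0485, edgeR adjusted p = 0.245). *Atp7b*, a copper-transporting ATPase, had the largest log2 fold change of that list (0.82, edgeR adjusted p = 0.385, and 0.47 without replicate 2), at a low level of 0.557 to 2.76 CPM. *Atox1*, a copper chaperone, had the smallest (-1.27, edgeR adjusted p = 0.401). *Atox1* was at 49.3, 293 and 55.7 CPM in Ctrl shRNA, and without replicate 2 its log2 fold change was 0.05. Of 16 genes for peroxisome import and oxidases, 14 were tested, with values from -0.73 for *Acox2* to 0.27 for *Pex14* (edgeR adjusted p = 0.383 each), which were at -0.90 and 0.24 without replicate 2, and 0 were higher and 1 lower at an unadjusted p under 0.05 in either version. The level of *Acox2* was low, at 0.337 to 0.711 CPM. Of 20 genes for sources of superoxide and hydrogen peroxide, 8 were tested and 0 passed at an unadjusted p under 0.05 in either direction, with or without replicate 2. With all libraries their log2 fold changes ran from -0.18 for *Maoa*, a monoamine oxidase of the outer mitochondrial membrane (edgeR adjusted p = 0.640), to 0.03 for *Aox1*, aldehyde oxidase (edgeR adjusted p = 0.896). Without replicate 2 *Maoa* was at 0.066 and *Aox1* at 0.073, and the range was -0.39 for *Noxo1* to 0.083 for *Duox1*. The level of *Noxo1* was low, at 0.456 to 1.42 CPM. Beside a median of -0.01 over all genes tested, the medians of the lists in the order given were -0.27, -0.35, 0.13, -0.12 and -0.03, and without replicate 2 they were -0.10, -0.06, 0.02, -0.07 and -0.05 beside -0.02.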

How the data were processed

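RNA-seq libraries of 6 MLE12 samples were grouped and numbered by their labels. The authors deposited whole-number counts per gene without normalization, and FPKM values that the authors made from the counts, the gene length and their own library size. The submitters' processing notes name HISAT2 2.0.5, StringTie 1.3.3b, featureCounts 1.5.0-p3 and mm10, and the labels also name Trinity. The use of strand in counting is not given in the sources used here. Columns left unused numbered 0.

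Counts were filtered with filterByExpr, scaled by TMM factors and tested with edgeR 4.0.16 (quasi-likelihood F-test, no covariate) in R 4.3.3, with Benjamini-Hochberg adjusted p under 0.05 over 15307 genes (15709 without Ctrl shRNA replicate 2). Counts of any 2 replicates of a group differed beyond sampling noise, and no library was a repeat of another. Near-identical copies of *Prdx2*, *Prdx3* and *Prdx6* had 0 counts. Alternatives were DESeq2 1.42.0, limma 3.58.1 (voom with sample quality weights, or log2(FPKM + 1) and log2(FPKM + 0.1)), other scalings and filters, a replicate block and each library left out. Combinations of DESeq2, other scalings or the block with the omission of Ctrl shRNA replicate 2, and levels per principal transcript of GENCODE M21, were chosen after seeing the data. The tests were first tested on simulated data.

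The members, the gene lists and the tests were chosen with earlier results of these data known. Named are all 10 members, every list gene past the threshold in edgeR with all libraries or without Ctrl shRNA replicate 2, the genes with the largest and the smallest log2 fold change of the other lists, and the targeted genes. *Txn1*, *Txnrd3*, *Gclc*, *Gpx3*, *Gpx8*, *Slc39a14*, *Noxo1*, *Duox1* and the overlapping genes were added outside that rule, after their values were seen. So were the examples named from the cell type marker lists, except *Sftpc*, which passed. Tables were read with pandas 2.3.3 in Python 3.11.15 and figures drawn with matplotlib 3.10.9. With 3 libraries a group, and 1 control library apart from the others, the precision was set by the spread between libraries more than by depth.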

Additional observations from a re-analysis of the deposited data

How the results depend on the processing

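Of the antioxidant enzymes, *Prdx6*, *Sod2* and *Cat*, all with small log2 fold changes, changed sign under some settings. *Prdx6* was -0.08 without Ctrl shRNA replicate 1 and -0.15 without replicate 3, against 0.03, and 0.33 without replicate 2. *Sod2* was 0.11 with library size only, -0.20 to 0.017 with 1 library left out and, without Ctrl shRNA replicate 2, 0.024 in DESeq2, 0.031 with library size only, 0.022 with median-of-ratios factors and 0.037 with the replicate block, against -0.10. *Cat* ran from -0.038 to 0.073 with 1 library left out, with a negative sign without Ctrl shRNA replicate 3 or knockdown replicate 2, against 0.03. Over all alternatives *Cat* reached 0.215. Over the alternatives the adjusted p ran from 0.0105 to 0.999 for *Prdx6*, from 0.0114 to 0.675 for *Prdx4* and from 0.0340 to 0.734 for *Prdx5*, and did not fall below 0.139 for the other 6 genes. Genes called among the 9 were 1 higher and 1 lower with sample quality weights and also in DESeq2 without Ctrl shRNA replicate 2, and 0 and 0 in every other setting run. The mitochondrial minus cytosolic difference (0.09) ran from -0.06 to 0.17 with 1 library left out, and was 0.29 without *Prdx6*, 0.15 with the median, 0.10 on log2(FPKM + 1) and 0.07 without *Prdx5*.

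Genes called higher in all (9) numbered 1 with library size only, 218 in DESeq2, 1327 with sample quality weights and 0 to 175 with 1 library left out. Genes called lower (1) numbered 0 with library size only, 3 with no count filter, 3 with protein-coding genes only, 135 in DESeq2, 971 with sample quality weights, 2 in limma on log2(FPKM + 1), 3 on log2(FPKM + 0.1) and 0 to 106 with 1 library left out. Without Ctrl shRNA replicate 2, genes called higher and lower numbered 491 and 329 in DESeq2, 178 and 105 with library size only, and 179 and 102 with median-of-ratios factors. Thioredoxin and sulfiredoxin partners called higher (0) numbered 3 in DESeq2, 3 with sample quality weights and 0 to 2 with 1 library left out, and without Ctrl shRNA replicate 2 they numbered 3 in DESeq2, 2 with library size only and 2 with median-of-ratios factors. Those called lower (1) numbered 0 with library size only, 2 with sample quality weights and 0 to 1 with 1 library left out. Glutathione genes called higher (0) numbered 2 in DESeq2, 3 with sample quality weights, 0 to 1 with 1 library left out and, without Ctrl shRNA replicate 2, 2 in DESeq2, 1 with library size only and 1 with median-of-ratios factors. Metal supply genes called higher (0) numbered 1 in DESeq2, 1 with sample quality weights and 1 in DESeq2 without Ctrl shRNA replicate 2, and peroxisome genes called lower (0) numbered 1 with sample quality weights. The causes were not tested.

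The deviations of same-numbered libraries correlated at -0.21, -0.16 and 0.02. With Ctrl shRNA replicate 2 apart from the other controls, these values cannot decide whether the replicate numbers pair the samples. With the replicate block, 0 genes were called higher and 0 lower, 0 of the enzymes in either direction and 0 thioredoxin partners lower. With the block and without Ctrl shRNA replicate 2, 225 genes were called higher and 251 lower, against 175 and 106 without the block. In that setting, 2 thioredoxin partners and 1 glutathione gene were called higher. The block changed no call of an enzyme.

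Only 3 libraries a group limit these comparisons, and 1 control library sets most of the spread. Gene counts cannot show enzyme protein, activity or peroxide levels, which were not analysed here.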
